A study of Mus musculus with 6 samples.

Results

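The SoxF subgroup of transcription factors has 3 members in the mouse, Sox7, Sox17 and Sox18, and the methylation of the DNA around each gene was compared between endothelial cells of Dnmt3a knockout (KO) and wild-type (WT) lungs. Each locus was taken as the gene span in RefSeq plus 50 kb on each side. The table of methylation levels gives 1 value per 1 kb tile, and 281 of its 1954255 tiles lie in these windows, 104 around Sox7, 91 around Sox17 and 86 around Sox18. The members were listed by name as a gene family.

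DNA came from endothelial cells sorted from lung by flow cytometry, with 3 KO and 3 WT samples, and was read by tagmentation-based whole-genome bisulfite sequencing, in which unmethylated cytosines are converted and methylated ones are not. The labels give the genotype as ko or wt of Dnmt3a and give no allele, Cre driver, strain, age, sex or treatment, and nothing in them shows that replicates are different animals. The p-values below cover the scatter among these 6 samples, part or all of which may be technical. The comparison asks how methylation at these loci depends on DNMT3A, one of the enzymes that add methyl groups to unmethylated DNA.

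SoxF proteins bind DNA through an HMG box and act in blood and lymphatic endothelium, where their functions overlap in part. Sox17 is known for its part in arterial endothelium, Sox18 for switching on Prox1 at the start of lymphatic development in the mouse, and Sox7 for early vascular and blood development. Genes of developmental regulators often lie in broad stretches of unmethylated, CpG-rich DNA, and the methylation level climbs over a few kilobases at the edges of such a stretch. A level averages over the DNA of all sorted cells, so a partial loss in every cell and a complete loss in some cells cannot be told apart.

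Over all tiles the mean level was 63.7% ± 0.140 in KO and 69.0% ± 0.451 in WT (SD, n = 3 each), and the correlation of samples across tiles was 0.914 to 0.925 in the same group and 0.839 to 0.854 otherwise. The span of Dnmt3a was at 50.3% ± 0.983 in KO and 65.6% ± 0.620 in WT, which does not check the genotype labels. The lowest tile of each of 8 endothelial marker genes lay between 0.497 and 12.2% in KO and between 0.373 and 17.1% in WT. The same range was 0.412 to 1.20% in KO and 0.915 to 2.72% in WT for 4 epithelial genes, 0.450 to 19.2% and 0.606 to 27.2% for 4 mesenchymal genes, 4.98 to 51.9% and 4.02 to 57.5% for 5 leukocyte genes, and 51.8 to 62.4% and 50.9 to 71.8% for 3 erythroid genes. A low tile does not show that a gene is expressed, so these levels do not measure how pure the sort was, and the part of other cells in the differences was not tested. No read counts come with the levels, and the depth behind each value is unknown.

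Methylation was lower in KO around all 3 genes. The mean level of the Sox7 window was 52.9, 52.3 and 53.9% in the KO samples, against 68.5, 65.1 and 66.1% in the WT samples. The Sox17 window was at 54.04, 52.96 and 53.9% in KO, against 67.4, 65.9 and 65.7% in WT. The Sox18 window was at 59.9, 58.9 and 59.9% in KO, against 64.9, 64.7 and 64.4% in WT. At each locus the KO samples lay below the WT samples without overlap. The mean over all tiles had the same order, at 63.5 to 63.8% in KO and 68.7 to 69.5% in WT. How many other gene windows share it was not counted.

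The difference was -13.6 points at Sox7 (SE 0.781, limma, adjusted p = 3.20e-11), -12.7 points at Sox17 (SE 0.632, adjusted p = 6.73e-12) and -5.10 points at Sox18 (SE 0.562, adjusted p = 1.28e-07). All 3 windows passed both limits, 5 points and an adjusted p of 0.05, as did 59.5% of the 20479 gene windows measured, so a called window is common. Windows called higher made up 0.0244%. The median of all gene windows was -5.80 points. Whether the windows of the 3 genes differed from each other was not tested. A loss as large as that of the Sox7 window was seen in 3.16% of genes, one as large as that of Sox17 in 4.91% and one as large as that of Sox18 in 58.3%. The Sox18 window lost its call when samples were centred on their median (-0.208 points) or scaled to one mean (-0.0774 points), and it also did so without KO replicate 2 (-4.76 points) or without WT replicate 1 (-4.98 points). The differences of the other 2 windows shrank on centring, to -8.66 points at Sox7 and -7.78 points at Sox17, and kept their calls.

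Tile by tile, 122 of the 281 tiles were lower in KO (43.4%) and 0 were higher, by limma with limits of 10 points and an adjusted p of 0.05. Of all tiles, 16.2% were lower and 0.0796% higher by this rule. Lower tiles numbered 54 of 104 around Sox7 (51.9%), 51 of 91 around Sox17 (56.0%) and 17 of 86 around Sox18 (19.8%). Tiles higher at an unadjusted p under 0.05 numbered 0 around Sox7, 1 around Sox17 and 2 around Sox18, against 0.631% of all tiles. Every KO sample lay below every WT sample in 73.1% of the Sox7 tiles, 62.6% of the Sox17 tiles and 32.6% of the Sox18 tiles, against 31.6% of all tiles. The reverse order was seen in 0, 2 and 2 tiles of these windows and in 1.54% of all tiles. The median tile difference was -11.6 points around Sox7, -11.8 around Sox17 and -3.49 around Sox18, with -4.05 over all tiles.

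The counts fell when the genome-wide shift was taken out. After centring each sample on its median, 29 tiles were lower around Sox7, 23 around Sox17 and 5 around Sox18, while 6.64% of all tiles were. Higher tiles then numbered 0, 2 and 2 (0.931% of all tiles). After scaling to one mean, these counts were 30, 25 and 6, and 6.58% of all tiles were lower. Higher tiles numbered 0, 0 and 3 (1.57% of all tiles).

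**Figure D1:**
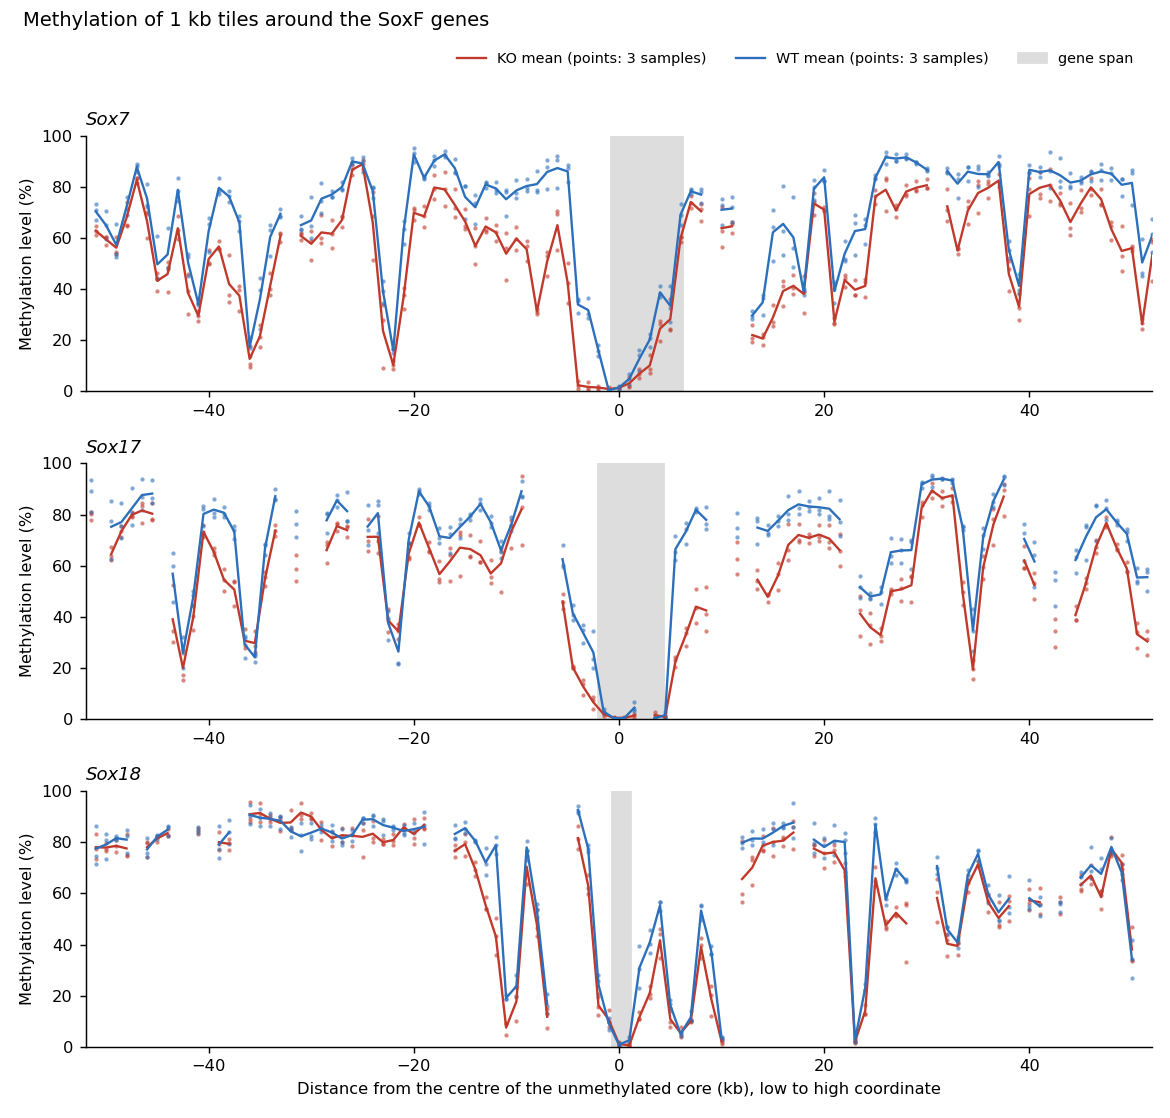
Methylation level in percent of each 1 kb tile (vertical axis) against the distance in kb from the centre of the unmethylated core (horizontal axis, low to high coordinate) for Sox7, Sox17 and Sox18. Lines are group means, points are the 3 samples of each group, grey bars are gene spans and breaks in the lines are absent tiles; the KO line runs below the WT line over most of the Sox7 and Sox17 windows, with 54 and 51 tiles called lower, against 17 in the Sox18 window.

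Highly methylated tiles were fewer in KO at each locus. Tiles at 80% or more numbered 10, 9 and 11 around Sox7 in the KO samples, against 46, 34 and 39 in the WT samples. Around Sox17 they numbered 9, 10 and 6 in KO, against 32, 31 and 30 in WT. Around Sox18 they numbered 23, 26 and 25 in KO, against 36, 35 and 36 in WT. The groups did not overlap in any of these counts (two-sided exact permutation p = 0.10 at each locus, the smallest that 3 against 3 samples can give). Such an order was common, since 79.8% of the 20479 gene windows had fewer tiles at 80% or more in every KO sample than in every WT sample. In the class of tiles with a mean over all samples from 50 to 80%, 55.3% of the tiles in the 3 windows were lower, against 15.6% of all tiles in that class. By locus the share was 59.3% at Sox7, 70.6% at Sox17 and 27.8% at Sox18. At the other end of the scale, 1 of 17 tiles under 10% was lower in the windows (5.88%), against 3.25% of such tiles overall.

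Sox7 (gene ID 20680) spans 7027 bases on chromosome 14, chr14:63943706-63950732 in mm10. Its unmethylated core was wider in each KO sample than in each WT sample, mainly on the low-coordinate side, an order seen in 16.6% of the 14027 protein-coding genes with a core. A core was taken in each sample as the longest run of adjacent tiles under 10% that meets the gene span. It measured 7, 8 and 8 kb in the KO samples, against 3, 4 and 3 kb in the WT samples. The KO cores started at 63940001 and the WT cores at 63943001 in every sample of the group, so 3 kb of the extension lay on the low side. On the high side the cores ended between 63947000 and 63948000 in KO and between 63946000 and 63947000 in WT.

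The 3 tiles that were core in KO and not in WT lie just outside the gene. The tile from 63940001 to 63941000 was at 0.941, 2.08 and 3.99% in KO, against 30.6, 36.1 and 35.1% in WT, a difference of -31.6 points (limma, adjusted p = 1.57e-09). The next tile, from 63941001, was at 1.68% ± 1.66 in KO and 31.7% ± 4.06 in WT (adjusted p = 4.12e-09). The innermost, from 63942001, was at 1.42% ± 0.787 in KO and 15.8% ± 2.0 in WT (adjusted p = 4.60e-07). These tiles were thus intermediate in WT and nearly as low as the centre of the core in KO. A pair of tiles at the low end of the gene, from 63943001 and 63944001, were near 0 in both groups, at 0.864% ± 0.677 and 1.33% ± 0.216 in KO and 0.347% ± 0.0542 and 1.41% ± 0.746 in WT.

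Farther out on the low side the loss was of high methylation. The tile from 63939001 was at 42.5, 34.6 and 50.1% in KO, against 88.6, 82.0 and 87.3% in WT (-43.6 points, limma, adjusted p = 3.98e-07). The largest loss in the Sox7 window was in the tile from 63936001, at 31.0, 32.3 and 30.3% in KO, against 86.3, 78.1 and 78.8% in WT (-49.8 points, adjusted p = 3.82e-08). On the high side, 2 tiles inside the gene were lower, those from 63947001 (10.1% ± 3.65 in KO, 20.2% ± 2.56 in WT) and 63948001 (24.5% ± 4.33 in KO, 38.7% ± 2.03 in WT). The call at 63947001 ended under several alternatives, among them scaling to one mean (-8.93 points) and leaving out KO replicate 2 (-8.73 points), KO replicate 3 (-9.51 points), WT replicate 1 (-9.07 points) or WT replicate 2 (-9.82 points). The tiles over the far part of the gene were not called lower, with 59.7% ± 1.05 in KO and 69.1% ± 4.03 in WT at 63950001 (adjusted p = 0.103).

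Adjacent lower tiles, merged where at most 1 kb lay between them, made a region of 22 kb on the low side of Sox7, from 63921001 to 63943000, with 20 lower tiles. Over those tiles the level was 48.8, 47.0 and 50.8% in KO, against 72.8, 69.97 and 72.6% in WT. No annotated gene lies in this region. Of the 109779 regions of lower methylation in the genome, 0.519% held as many lower tiles. Because the tiles were picked by their calls, the level of a region is a description and no separate test.

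Sox17 (gene ID 20671) spans 6499 bases at chr1:4490928-4497426. Its core covered most of the gene in both groups, and both edges lost methylation in KO, as did tiles farther out. In the KO samples the core measured 5, 5 and 6 kb, against 4, 4 and 4 kb in the WT samples. It ended at 4495000 in each of the 6 samples, because the tile that follows is absent from the table. The tiles on the far side of that gap, from 4496001 and 4497001, were low as well, at 1.51% ± 1.14 and 0.812% ± 0.258 in KO and 0.311% ± 0.0751 and 1.53% ± 1.12 in WT. With absent tiles bridged, an alternative chosen after the gap was seen, the core measured 8, 8 and 9 kb in KO and 7, 7 and 7 kb in WT, and the gain was the same.

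Inside the gene the tiles were near 0 in both groups. From 4492001 the level was 0.470% ± 0.134 in KO and 0.336% ± 0.124 in WT, and from 4493001 it was 0.468% ± 0.302 in KO and 0.316% ± 0.0628 in WT. On the low side the level was 7.41, 3.78 and 8.51% in KO in the tile from 4490001, against 34.4, 23.6 and 20.1% in WT (-19.5 points, limma, adjusted p = 2.40e-05). The next tile outward, from 4489001, had a mean of 12.8% ± 3.05 in KO and 33.8% ± 3.602 in WT, and the tile from 4488001 one of 20.2% ± 0.459 in KO and 41.4% ± 3.004 in WT. The low edge of Sox17 thus had intermediate levels in WT and lower ones in KO over 3 tiles in a row.

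The high edge was steep in WT. In the first tile beyond the low stretch, from 4498001, the level was 20.4, 24.1 and 22.9% in KO, against 65.4, 71.7 and 62.4% in WT (-44.0 points, limma, adjusted p = 9.52e-08). The following tile, from 4499001, was at 33.8, 35.8 and 28.7% in KO, against 76.8, 68.5 and 74.3% in WT (-40.4 points, adjusted p = 7.81e-07). The tiles from 4500001 (44.0% ± 6.77 in KO, 81.9% ± 0.776 in WT) and 4501001 (42.5% ± 8.70 in KO, 77.9% ± 4.59 in WT) completed a region of 4 tiles. In KO the same tiles formed a slope from the core outward.

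Beyond it on the high side, a region of 11 kb from 4504001 to 4515000 held 10 lower tiles, at 64.1% ± 1.83 in KO and 79.4% ± 0.983 in WT. Another of 11 kb, from 4542001 to 4553000, held 10 lower tiles, of which 6 lie in the window, and overlaps the non-coding gene Gm37323 by 5.86 kb. It was at 57.8% ± 1.11 in KO and 76.2% ± 3.14 in WT.

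Sox18 (gene ID 20672) is the shortest of the 3 genes, with 1804 bases at chr2:181669837-181671640, and its core had the same mean width in both groups. The core measured 2, 3 and 3 kb in the KO samples, against 3, 3 and 2 kb in the WT samples. The tile from 181670001, in the middle of the gene, was at 1.16% ± 0.837 in KO and 0.789% ± 0.490 in WT. The tile from 181669001 was at 14.6, 7.70 and 9.67% in KO, against 6.70, 9.73 and 11.2% in WT, so it lay on either side of the 10% limit in both groups.

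Of the 17 lower tiles around Sox18, 5 lay within 5 kb of the core, 2 on its low side and 3 on its high side, and the others lay 7 to 27 kb from it. In the tile from 181672001 the level was 10.7, 13.5 and 10.9% in KO, against 30.4, 39.5 and 23.0% in WT (-19.3 points, limma, adjusted p = 0.000103). The next, from 181673001, was at 23.6, 18.95 and 20.5% in KO, against 36.8, 40.2 and 45.5% in WT (-19.8 points, adjusted p = 9.90e-05). The groups did not overlap in either tile. The next tile, from 181674001, was at 41.7% ± 6.06 in KO and 55.4% ± 1.91 in WT, a call that ended on centring (-8.82 points), on scaling (-9.80 points) and without KO replicate 2 (-10.3 points), WT replicate 1 (-13.1 points) or WT replicate 3 (-13.2 points).

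On the low side of Sox18, the tile next to the core, from 181668001, was at 16.2% ± 4.14 in KO and 24.4% ± 4.41 in WT, too small a gap for a call. The tiles from 181667001 (63.0% ± 3.71 in KO, 77.6% ± 1.44 in WT) and 181666001 (81.7% ± 4.67 in KO, 92.7% ± 1.49 in WT) were lower. Both calls ended on centring and on scaling, and that at 181666001 also ended without KO replicate 1 (-8.79 points).

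A second low stretch lies on the high side of Sox18, over the tiles from 181675001 to 181678000. Its middle tile, from 181676001, was at 5.39% ± 1.94 in KO and 5.07% ± 0.900 in WT. Between this stretch and the low tile at Tcea2, a transcription elongation factor gene, the tile from 181679001 was at 18.7% ± 6.19 in KO and 37.4% ± 1.81 in WT (-18.7 points, limma, adjusted p = 0.000172). Low tiles thus alternated with partly methylated ones beyond the gene, and in that stretch the called losses were in the partly methylated tiles. This was largely set by the limit of 10 points. The tiles from 181676001 (5.07% in WT) and 181680001 (3.33% in WT) could not lose as much, and that from 181677001 (11.5% in WT) hardly could.

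**Figure D2:**
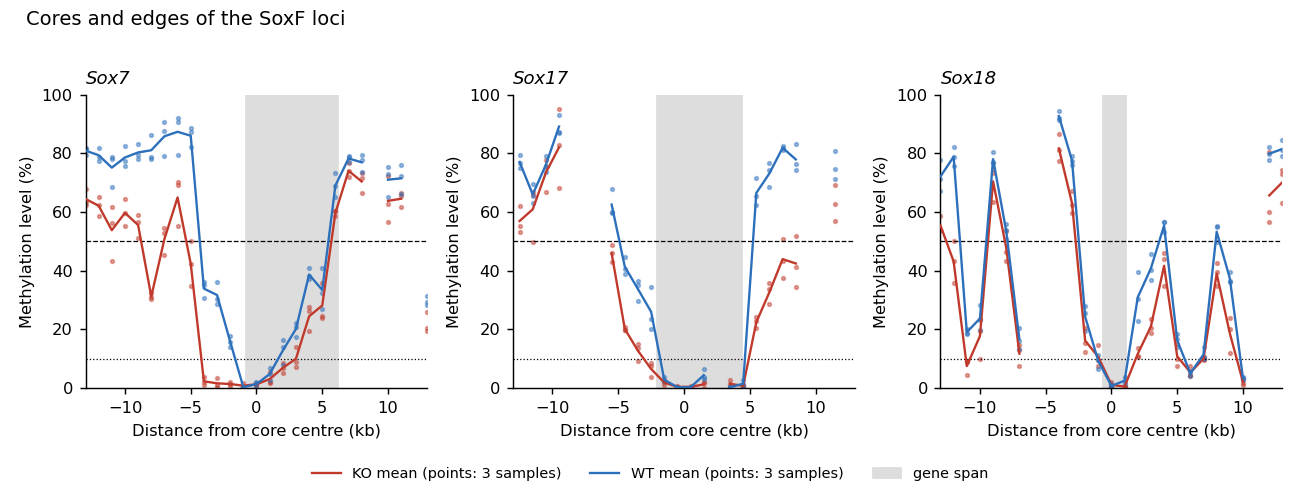
Methylation level in percent (vertical axis) close to the core centre (horizontal axis, kb) at Sox7, Sox17 and Sox18. Lines are group means, points are samples, grey bars are gene spans, and the dotted and dashed lines mark 10 and 50%. At Sox7 the KO line stays near 0 for 3 kb where the WT line climbs to 33.9%, at Sox17 the first tile past the high edge is at 22.5% in KO and 66.5% in WT, and at Sox18 the lines meet in the core and part on both sides.

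Set side by side, the mean core width was 7.67 kb ± 0.577 in KO and 3.33 kb ± 0.577 in WT at Sox7, 5.33 kb ± 0.577 in KO and 4.0 kb ± 0 in WT at Sox17, and 2.67 kb ± 0.577 in both groups at Sox18 (SD, n = 3 each). The gain was 4.33 kb at Sox7 and 1.33 kb at Sox17 (two-sided exact permutation p = 0.10 for each, the smallest possible), and 0 kb at Sox18 (exact permutation p = 1). In WT the order was Sox17, Sox7, Sox18, with Sox17 and Sox7 sharing a width of 4 kb and the widths of Sox7 and Sox18 overlapping at 3 kb. In KO the order was Sox7, Sox17, Sox18 with no shared width. With absent tiles bridged, Sox17 came before Sox7 in KO too, at 8, 8 and 9 kb against 7, 8 and 8 kb.

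Over the 14027 genes, 0.0499% had a core that was narrower in every KO sample than in every WT sample. The median gain was 0 kb and the 90th percentile 1.33 kb. A gain as large as that of Sox7 was seen in 1.23% of these genes and one as large as that of Sox17 in 10.5%. The gain at Sox7 lay between 3.0 and 4.33 kb over the other limits and scalings tried. At Sox17 it was 0.667 kb with a limit of 5% (exact permutation p = 0.6), 2.67 kb with a limit of 20% (exact permutation p = 0.10) and 0.333 kb after centring (exact permutation p = 1). At Sox18 the difference was 1.67 kb with a limit of 20% (exact permutation p = 0.2) and -1.0 kb after centring (exact permutation p = 0.10). Whether the levels were smoothed over neighbouring positions is not given in the sources used here, and its part in these widths was not tested.

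**Figure D3:**
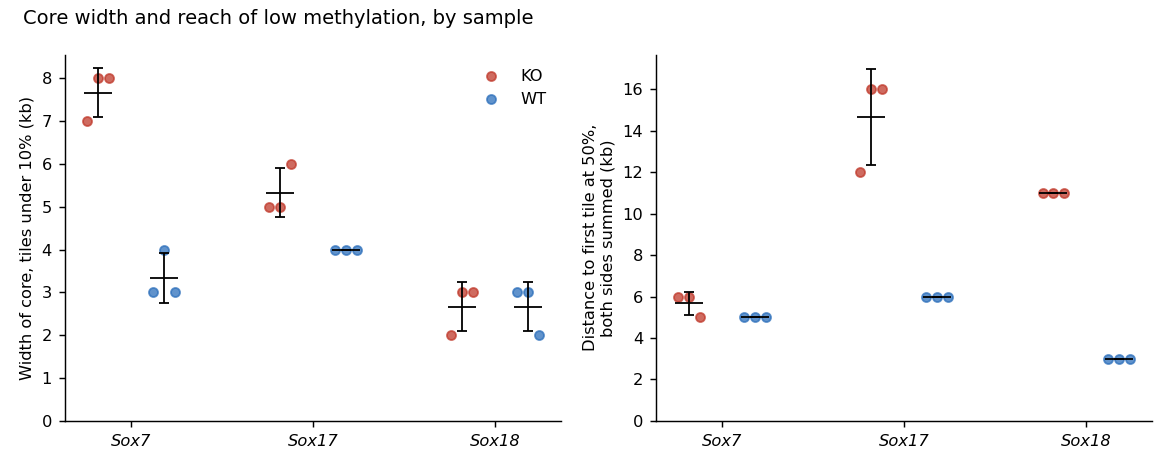
Left, width in kb of the run of tiles under 10% at each gene and sample; right, distance in kb from the core to the first tile at 50% or more, both sides summed. Points are samples, with KO left of WT, and bars are the mean and SD (n = 3 each). Widths are 7 to 8 kb in KO and 3 to 4 kb in WT at Sox7, and the distance is 12 to 16 kb in KO and 6 kb in WT at Sox17.

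For levels of the core, one core per gene was drawn from the mean of all samples, and the edge was the tiles within 5 kb on either side of it. The core of Sox7, from 63942001 to 63947000, was at 3.52, 1.94 and 2.71% in KO, against 8.22, 6.16 and 6.75% in WT. Its difference of -4.32 points had an adjusted p of 0.00959 in limma and stayed under the 5 points asked of a call. The core of Sox17, from 4491001 to 4495000, was at 1.04% ± 0.296 in KO and 1.99% ± 0.444 in WT (adjusted p = 0.140), and that of Sox18, from 181669001 to 181672000, at 4.12% ± 1.31 in KO and 4.19% ± 1.25 in WT (adjusted p = 0.966). From WT levels of 1.99% and 4.19% no loss of 5 points was possible, so neither core could be called lower. Cores were called lower in 5.16% of 13189 genes and higher in 0% (limma), with 0.614% higher at an unadjusted p under 0.05.

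Over the whole gene span, Sox7 averaged 16.8% ± 1.83 in KO and 22.6% ± 1.44 in WT, and its -5.77 points were called (limma, adjusted p = 0.00496). That call ended on centring (-0.878 points), on scaling (-4.18 points) and without KO replicate 2 (-4.73 points). The Sox17 span averaged 1.86% ± 0.443 in KO and 5.12% ± 1.45 in WT, and its -3.26 points were too few for a call (adjusted p = 0.00896). From 5.12% in WT hardly more than the 5 points asked of a call could be lost. Of the 7 tiles of this span, only that from 4490001 was called lower (-19.5 points), and it overlaps the gene by 0.073 kb. The span of Sox18 is the same 3 tiles as its core. Gene spans were called lower in 48.9% of 20209 genes and higher in 0.238%.

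The edges were lower at all 3 genes. The edge of Sox7 was at 36.9, 32.5 and 38.2% in KO, against 57.04, 54.3 and 58.01% in WT, a difference of -20.6 points (SE 1.73, limma, adjusted p = 2.63e-09). The edge of Sox17 was at 18.4, 17.8 and 17.4% in KO, against 39.4, 39.4 and 35.7% in WT (-20.3 points, SE 1.41, adjusted p = 1.99e-10). The edge of Sox18 was at 31.7, 30.1 and 32.5% in KO, against 42.2, 43.6 and 42.9% in WT (-11.5 points, SE 1.44, adjusted p = 6.10e-07). Edges were called lower in 77% of 13185 genes and higher in 0% (limma), with 0.0228% higher at an unadjusted p under 0.05 and a median of -8.22 points. A called edge is thus common. A loss as large as that at Sox7 was seen in 5.45% of genes, as at Sox17 in 5.75% and as at Sox18 in 29.6%. The calls held on centring, where the difference at Sox18 was -6.56 points, and with an edge of 2 kb, where that at Sox17 was -13.1 points.

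For Sox17 this edge includes the low tiles beyond the absent one. With absent tiles bridged, its edge averaged 28.4% ± 2.26 in KO and 57.9% ± 2.26 in WT (-29.5 points, limma, adjusted p = 1.04e-11), and 1.04% of genes then lost as much.

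Each side of a core was also taken alone. At Sox7 the low side was at 34.1, 27.7 and 35.5% in KO, against 67.3, 61.4 and 66.1% in WT, and the high side, which runs through the gene, at 39.7, 37.3 and 40.9% in KO, against 46.7, 47.1 and 49.9% in WT. The low side thus differed by -32.5 points and the high side by -8.63 points, and all 5 tiles of the low side were called lower against 2 of 5 on the high side. The difference between the sides, low minus high, was -6.86 points ± 2.35 in KO and 17.02 points ± 3.24 in WT, without overlap (exact permutation p = 0.10, adjusted over the 3 genes 0.3).

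The sides of Sox17 differed by -19.6 points on the low side and -21.0 points on the high side, and those of Sox18 by -11.2 and -11.6 points. For these genes the difference between the sides was 1.43 points (exact permutation p = 0.5) and 0.349 points (exact permutation p = 0.8). With absent tiles bridged, the high side of Sox17 was at 39.2, 36.1 and 30.9% in KO, against 74.4, 76.5 and 73.8% in WT (-39.4 points), and the difference between its sides was 19.9 points (exact permutation p = 0.10).

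**Figure D4:**
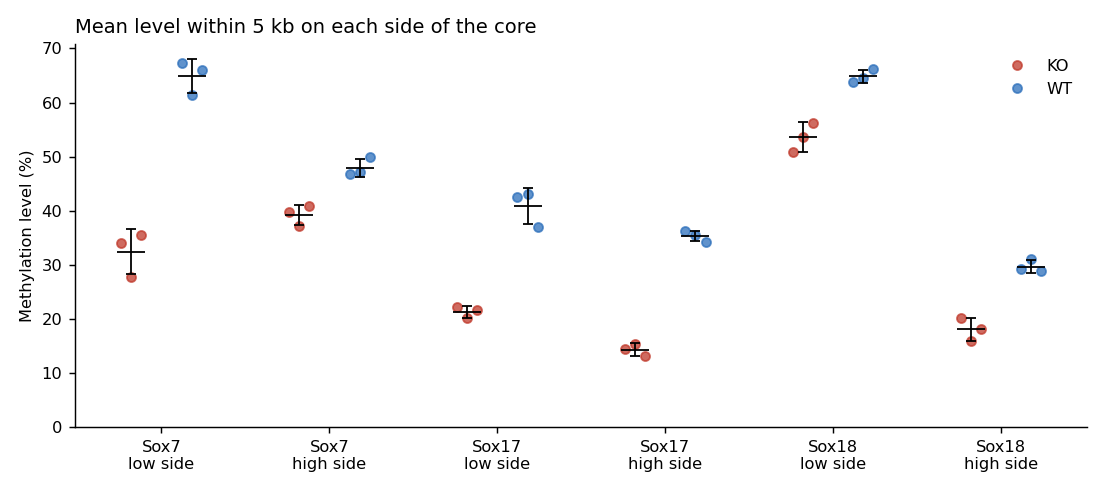
Mean methylation level in percent of the tiles within 5 kb of the core, for the low-coordinate and high-coordinate side of Sox7, Sox17 and Sox18. Points are samples, with KO left of WT, and bars are the mean and SD (n = 3 each). The groups do not overlap on any side, an order that was not counted over the sides of other genes, where 77% of 13185 edges were called lower. The low side of Sox7 is at 32.4% in KO and 64.9% in WT. The high side of Sox17 is drawn without bridging the absent tile.

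Whether the edges lost different amounts was tested for the 3 pairs of genes. The effect at Sox7 minus that at Sox18 was -9.12 points, and the effect at Sox17 minus that at Sox18 was -8.82 points (exact permutation p = 0.10 for each, the smallest possible, adjusted over the 3 pairs 0.15). Neither difference can pass a threshold of 0.05 with 3 samples a group. Sox7 and Sox17 differed by -0.299 points (exact permutation p = 0.9), and by 8.93 points with absent tiles bridged (exact permutation p = 0.10). Bridging moved the difference between Sox17 and Sox18 to -18.1 points (exact permutation p = 0.10). With an edge of 2 kb the sign between Sox17 and Sox18 turned (2.35 points, exact permutation p = 0.5).

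The reach of low methylation was also measured to the first tile at 50% or more on each side of the core. At Sox17 it was 12, 16 and 16 kb in KO over both sides, against 6, 6 and 6 kb in WT (exact permutation p = 0.10). On its low side it was 7 kb in each KO sample and 3 kb in each WT sample, and the KO distance runs over 3 absent tiles, so where the level passes 50% is known less closely there. On its high side it was 5, 9 and 9 kb in KO, against 3 kb in each WT sample, and 2 absent tiles lie just before the tile that ended the 9 kb. At Sox18 the reach was 11 kb in each KO sample and 3 kb in each WT sample (exact permutation p = 0.10), with the whole difference on the high side. There the KO samples stayed under 50% past the second low stretch to the tile from 181682001, inside Tcea2, with 1 absent tile just before it. The WT distance ended at the tile from 181674001 (41.7% in KO, 55.4% in WT). Beyond it, the tiles from 181675001 (16.3%), 181676001 (5.07%) and 181677001 (11.5%) were low in WT too. The gain at Sox18 thus came from few tiles near the 50% limit and not from a loss along its whole length. At Sox7 the reach was 6, 6 and 5 kb in KO, against 5, 5 and 5 kb in WT (exact permutation p = 0.4). Of the 13189 genes with a core drawn from all samples, 27% had a longer reach in every KO sample than in every WT sample. A gain as large as the 8.67 kb of Sox17 was seen in 1.6% of them and one as large as the 8.0 kb of Sox18 in 1.88%, with a median of 0.333 kb.

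The distances depended on the limit. With a limit of 30% the gain in KO was 3.33 kb at Sox7, 3.33 kb at Sox17 and 1.67 kb at Sox18, and with a limit of 70% it was 8.33, 17 and 2.0 kb (exact permutation p = 0.10 for each).

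Lower tiles were also found away from the edges of Sox7 and Sox17, at 21 to 50 kb from the core. At Sox7 they were 10 of 29 tiles on the low side and 14 of 29 on the high side, at Sox17 9 of 24 and 15 of 26, and at Sox18 0 of 25 and 4 of 24, while 16.2% of all tiles were lower. At 21 to 50 kb from the core, the Sox7 window averaged 60.3% ± 0.749 in KO and 72.4% ± 2.11 in WT, and the Sox17 window at 58.4% ± 0.284 in KO and 69.7% ± 1.503 in WT. Between 6 and 10 kb the low side of Sox7 averaged 52.5% ± 2.97 in KO and 78.9% ± 2.84 in WT, and its high side at 66.2% ± 3.58 in KO and 73.1% ± 3.05 in WT.

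Other dips in methylation lie in the windows, and they were looked up after the values were seen, as runs of tiles with a mean under 50% and more than 5 kb from the core. Of 10 such dips around Sox7, 6 held a lower tile, as did 5 of 7 around Sox17 and 1 of 5 around Sox18. Among all tiles with a mean from 10 to 50%, 38.7% were lower, and a dip of several tiles has several chances to hold one. The dip from 63957001 to 63960000, on the high side of Sox7, was at 25.6, 21.1 and 24.7% in KO, against 46.6, 43.4 and 36.5% in WT. At Sox17 the dip from 4543001 to 4545000 was at 31.8% ± 4.92 in KO and 55.4% ± 3.44 in WT. In a pair of dips on the low side of Sox17 no tile was called. From 4456001 to 4458000 the level was 30.2% ± 4.05 in KO and 26.8% ± 3.16 in WT, and from 4470001 to 4472000 it was 36.4% ± 3.69 in KO and 32.0% ± 6.52 in WT. These dips carry no annotation in the gene table.

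The SoxF windows hold parts of other genes, and their tiles are counted above. In the Sox7 window, Pinx1, which encodes a telomerase inhibitor, had 9 of 26 tiles lower, at 54.8% ± 0.328 in KO and 65.6% ± 3.33 in WT. Rp1l1, a gene of retinal photoreceptors, had 7 of 9 tiles lower, at 54.6% ± 1.81 in KO and 71.4% ± 2.42 in WT. The gene 4930578I06Rik had 5 of 16 tiles lower, and the non-coding gene Gm36410 had 0 of 4. In the Sox17 window, tiles of the pseudogene Gm7357 (1 of 5 lower), the small nuclear RNA gene Gm22307 (0 of 1) and Gm37323 (1 of 1) were measured.

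In the Sox18 window, Prpf6, a splicing factor gene, had 0 of 30 tiles lower, at 83.3% ± 0.227 in KO and 84.3% ± 0.293 in WT. Gm29797 had 4 of 5 tiles lower, at 51.0% ± 3.40 in KO and 67.2% ± 1.27 in WT, and it held the largest loss of the Sox18 window, in the tile from 181658001 (35.8, 43.5 and 50.3% in KO, against 78.9, 75.6 and 82.1% in WT). Tcea2 had 2 of 7 tiles lower, Rgs19, a regulator of G protein signalling, 1 of 6, Lkaaear1 2 of 3, and the nociceptin receptor gene Oprl1 0 of 6. The small nuclear RNA gene Gm25879 had 0 of 1.

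Promoter sequences were at hand for some of these neighbours, and a pair on the high side of Sox18 is shown, picked after the values were seen, for a CG-rich promoter without a called tile and a CG-poor one with a called tile. Both are on the minus strand of chromosome 2 in GRCm38.p6, from RefSeq, at chr2:181693761-181694060 for Rgs19 and chr2:181698393-181698692 for Lkaaear1, each with 300 bases written 5′ to 3′. Capitals mark CG dinucleotides, which read the same on both strands.
Rgs19: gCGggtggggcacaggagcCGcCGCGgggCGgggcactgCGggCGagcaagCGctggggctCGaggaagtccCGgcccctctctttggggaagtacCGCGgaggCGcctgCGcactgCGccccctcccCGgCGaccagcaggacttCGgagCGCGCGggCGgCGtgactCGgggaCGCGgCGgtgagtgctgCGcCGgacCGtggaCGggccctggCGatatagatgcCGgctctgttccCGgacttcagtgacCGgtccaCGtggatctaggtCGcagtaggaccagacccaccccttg
Lkaaear1: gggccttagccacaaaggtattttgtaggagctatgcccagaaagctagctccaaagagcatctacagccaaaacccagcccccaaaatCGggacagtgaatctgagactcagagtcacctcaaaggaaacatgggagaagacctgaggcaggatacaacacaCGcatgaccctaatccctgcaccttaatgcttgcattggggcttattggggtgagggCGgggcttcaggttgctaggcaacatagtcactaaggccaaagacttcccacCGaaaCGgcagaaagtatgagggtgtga
The Rgs19 promoter holds 37 CG and the Lkaaear1 promoter 5. Over the 32851 promoters of the same length in the table the median is 7, and 5.58% hold at least 37 while 62.0% hold at least 5. The tiles over the Rgs19 promoter were at 8.83, 7.75 and 7.39% in KO, against 12.9, 11.9 and 13.4% in WT, and 0 of them were called. The tile from 181693001 was at 2.52% in WT and could not lose the 10 points asked of a call. The pair therefore does not show that a CG-rich promoter keeps its methylation. In the tile from 181694001 the level was 16.3, 12.99 and 12.8% in KO, against 22.4, 22.1 and 24.5% in WT, and its -8.96 points (limma, adjusted p = 0.00309) were under the 10 asked of a call. The tile over the Lkaaear1 promoter was at 55.6, 33.3 and 56.1% in KO, against 64.7, 64.6 and 65.5% in WT, and was called lower. KO replicate 2 lay well below the other KO samples there. The table holds 6 more promoters in this window. One of Rgs19 with 27 CG lies in the tiles given above, and another with 4 CG had 1 of 2 tiles lower (72.6% ± 2.12 in KO, 80.4% ± 4.90 in WT). That of Gm29797 has 0 CG and a lower tile (69.4% ± 2.79 in KO, 80.5% ± 0.540 in WT). The 3 of Oprl1, with 5, 2 and 2 CG, share a tile that was not called (63.3% ± 3.26 in KO, 66.2% ± 2.31 in WT), so CG-poor promoters were found both with and without a called tile. The promoter table has no entry for Sox7, Sox17 or Sox18.

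Other genes of the Sox family, known SoxF partners and reported targets, and ETS factors of endothelium were described in the same way. Of 15 other Sox genes, 13 had an edge, and 10 of these were lower (limma, 5 points and an adjusted p of 0.05 as limits), against the 77% of all edges given above. The median edge difference was -12.5 points. The edge of Sox6, a SoxD gene, averaged 15.7% ± 1.79 in KO and 44.996% ± 0.848 in WT (adjusted p = 1.21e-12). Sox11, a SoxC gene, was at 45.2% ± 2.66 in KO and 72.5% ± 4.29 in WT (adjusted p = 3.14e-10), and Sox12, of the same subgroup, at 40.8% ± 1.21 in KO and 63.1% ± 1.83 in WT (adjusted p = 2.57e-10). The core was wider in every KO sample in 4 of the 15 (16.6% of all genes with a core), among them Sox12, at 5 kb in each KO sample and 3 kb in each WT sample.

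Of 21 partners and reported targets of SoxF factors, 20 had an edge, and 18 of these were lower (77% of all edges) with a median of -13.8 points. Nr2f2, a transcription factor of veins and lymphatics, had an edge level of 1.05% ± 0.379 in KO and 43.6% ± 2.54 in WT (limma, adjusted p = 5.23e-15), and its core measured 18, 19 and 19 kb in KO, against 3, 3 and 3 kb in WT. Nrp2, a semaphorin and VEGF-C receptor, was at 16.7% ± 0.293 in KO and 39.1% ± 0.722 in WT. Flt1, a VEGF receptor gene, was at 46.7% ± 2.09 in KO and 72.9% ± 0.914 in WT. Cores were wider in 10 of the 21, against 16.6% of all genes with a core. The edges of Cdh5, the vascular cadherin gene (12.6% ± 2.33 in KO, 14.6% ± 2.18 in WT), and Egfl7 (11.7% ± 1.63 in KO, 14.5% ± 1.65 in WT) were the ones not called. They are named because they are the exceptions, after their values were seen.

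Of 8 ETS factors, which bind many endothelial enhancers, 7 had a lower edge (77% of all edges), with a median of -12.2 points, and 3 had a wider core (16.6% of all genes with a core). Fli1 was at 6.89% ± 1.10 in KO and 42.9% ± 4.12 in WT (limma, adjusted p = 6.80e-13), with a core of 11, 8 and 14 kb in KO, against 3, 3 and 4 kb in WT. Etv6 averaged 39.4% ± 2.53 in KO and 62.0% ± 0.250 in WT, and Ets1 at 26.9% ± 1.58 in KO and 44.7% ± 1.998 in WT. Each edge measured in these 3 lists had a negative difference, called or not, as had nearly all edges of protein-coding genes. Of 13185 edges, positive differences were seen in 90 at 0 to 2 points, 8 at 2 to 4 and 2 at 4 to 6. The SoxF median was -20.3 points over 3 genes.

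**Figure D5:**
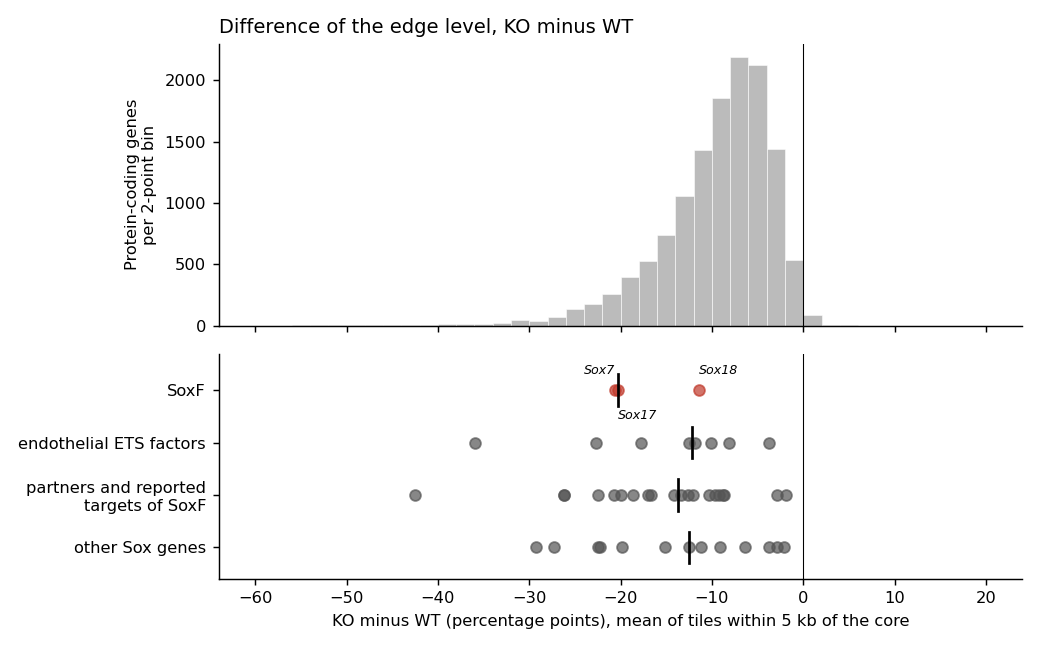
Difference of the edge level, KO minus WT, in percentage points (horizontal axis). Top, the number of protein-coding genes per bin of 2 points; bottom, single genes of the SoxF group and of 3 lists, with a bar at each median. Sox7 and Sox17 lie near -20 points, Sox18 at -11.5, and the medians of the lists lie between -13.8 and -12.2, against -8.22 over all genes.

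The genes most like each SoxF gene were sought by the root mean square difference over 14 group means of the profile by distance from the core, over 13135 to 13138 genes. They were Lin28b (4.41 points), Hsd11b2 (5.32 points) and Cdc42ep4 (5.60 points) for Sox7. For Sox17 they were Sh3tc2 (5.46 points), Gata2 (5.999 points) and Grrp1 (7.66 points). For Sox18 they were Raet1e (9.39 points), Pdgfb (9.70 points) and Tradd (10.5 points). Gata2, a transcription factor of blood and endothelium, had an edge at 17.6% ± 0.979 in KO and 41.7% ± 1.79 in WT. These levels are close to the 17.9% ± 0.491 and 38.2% ± 2.13 of Sox17. That match was set by the choice, since the profile used to pick genes includes the tiles of the edge. The Gata2 core was wider than that of Sox17 in KO, at 15.3 kb in KO and 4.0 kb in WT on average. Sox18 had the least similar nearest genes of the 3.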

How the data were processed

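Per the labels' protocols, tagmentation-based bisulfite libraries were made from 30 ng of DNA (3 a sample) and sequenced from both ends over 100 bases. The submitters' processing notes name BWA 0.7.8 and the build mm10. The authors deposited 1 table with a fraction (0 to 1) for every sample and 1 kb tile, as its header and values show. The sources used here name no methylation caller, smoothing or coverage filter. Without read counts the depth is unknown, and the number of samples limits precision.

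Fractions were multiplied to percent. KO and WT were compared with limma 3.58.1 (R 4.3.3, variance trend) over all tiles, or over all protein-coding genes for windows, spans, cores and edges, with Benjamini-Hochberg adjustment. The limits for a call were an adjusted p of 0.05 and a difference of 10 points for tiles or 5 points for gene regions. Core widths and distances had two-sided exact permutation tests. The test was checked on simulated data. Gene positions came from a RefSeq table of GRCm38.p6, the assembly of mm10, which gives no strand or exons, so sides are by coordinate and exons, introns and UTRs were not analysed. Other steps used pandas 2.3.3, numpy 2.4.6 and matplotlib 3.10.9 under Python 3.11.15.

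The members, lists and rules were chosen with earlier results of these data known. Named were the 3 genes, the genes in their windows, merged regions, 3 genes a list by the smallest p of the edge, and the 3 genes most alike. Alternatives changed the scaling, the thresholds, the flank, core and edge limits and the samples.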

Additional observations from a re-analysis of the deposited data

How the results depend on the processing

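Of 58 results and 755 alternative values, those given here changed a call, a sign or a count by over 1.5 times; the cause was not tested. Tiles lower at Sox7, Sox17 and Sox18 numbered 54, 51 and 17. They numbered 29, 23 and 5 on centring, 30, 25 and 6 on scaling, and 23, 19 and 2 at 20 points or more. With a flank of 100 kb they were 105 of 199, 91 of 169 and 30 of 167 tiles. A flank of 20 kb gave 30 of 46 tiles at Sox7 and 25 of 40 at Sox17, by construction fewer but a larger share (65.2 and 62.5%). An adjusted p under 0.01 gave 32 at Sox17 and 10 at Sox18, by construction fewer. Leaving out 1 sample gave 46 to 54, 37 to 47 and 11 to 16, with 11 at Sox18 without WT replicate 3. Higher tiles, 0 in the main count, numbered 2 at Sox17 and 2 at Sox18 on centring, 3 at Sox18 on scaling and 1 there with no minimum difference, and 0 to 1 at each of these loci without 1 sample. The Sox7 and Sox17 windows were at -8.66 and -7.78 points on centring and -8.73 and -7.83 on scaling. The Sox18 window lost its call at -0.208 points on centring and -0.0774 on scaling, and ranged from -5.28 to -4.76 without 1 sample. The Sox7 span lost its call at -0.878 on centring, -4.18 on scaling and -4.73 without KO replicate 2 (range -6.48 to -4.73). The Sox17 span was at 1.63 on centring and called at -19.5 with tiles from 5 to 95% only. That setting left only the tile from 4490001, which overlaps the gene by 0.073 kb. The Sox18 span and core, the same 3 tiles, turned positive at 4.82 on centring, 0.260 on scaling and 1.44 with tiles from 5 to 95% only, and ranged from -0.831 to 0.569 without 1 sample. With tiles from 5 to 95% only, the Sox18 span and core kept just the tile from 181669001. The Sox7 core was at 0.569 and the Sox17 core at 3.94 on centring, which takes the same shift off tiles near 0. With tiles from 5 to 95% only, the Sox7 core was called at -10.2. That setting kept just its tiles from 63942001 and 63946001, which were in the core through their low KO levels. The effect at Sox7 minus Sox17 turned to 1.16 on scaling and 8.93 with absent tiles bridged, and ranged from -1.99 to 1.72 without 1 sample. That at Sox17 minus Sox18 turned to 2.35 with an edge of 2 kb. The difference between the sides of Sox18 ranged from -0.911 to 2.78 without 1 sample. Edge losses kept their calls under every setting tried, from -21.7 to -18.9 at Sox7, -21.5 to -19.6 at Sox17 and -12.0 to -10.8 at Sox18 without 1 sample. The Sox18 edge was at -6.56 on centring, and the Sox17 edge at -13.1 with an edge of 2 kb and -29.5 with absent tiles bridged. Bridging gave -18.1 for Sox17 minus Sox18.

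Replicate numbers are shared by the groups. The deviations of same-numbered samples were correlated across tiles at r = 0.00563, -0.00321 and 0.0110. Whether the numbers pair samples in some other way was not tested. With the replicate block, lower tiles numbered 54, 50 and 18 at Sox7, Sox17 and Sox18, and no call of the 3 genes changed. The depth behind each tile is unknown, so noise from shallow tiles cannot be told from biological spread.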
